A study of Homo sapiens with 4 samples.

Results

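The genes described here are the cyclins that drive cells out of G1 and through S phase and the kinases they switch on: the D cyclins CCND1, CCND2 and CCND3, the E cyclins CCNE1 and CCNE2, the A cyclins CCNA1 and CCNA2, and the cyclin-dependent kinases CDK2, CDK4 and CDK6. They were taken by gene symbol from the deposited expression table, and all 10 symbols matched 1 row each among 57659 listed genes. Poly(A)-selected RNA was sequenced from 786-0, an established line of human renal cell carcinoma. Of the 4 libraries, Control 1 and Control 2 came from cells given control siRNA, whereas SLFN5 siRNA 1 and SLFN5 siRNA 2 came from cells given siRNA that targets SLFN5. SLFN5, or Schlafen 5, is the product of an interferon-responsive gene known for its part in growth control, and the series asks how its loss bears on the motility and invasiveness of these cells. All 4 libraries come from 1 transfected cell line, with no untransfected cells. No source used here gives the siRNA sequences, the number of different SLFN5 siRNAs or the time after transfection. Triplicates are mentioned in the design text, but each group has 2 libraries here. The labels do not say whether these were grown as separate cultures, so each p-value measures a spread between libraries, which may be technical. In the limma test used below that spread is largely pooled over genes of like level, with 9.602 prior against 2 residual degrees of freedom.

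A cyclin is the regulatory subunit that a cyclin-dependent kinase needs to be active. D cyclins respond to growth factors and pair with CDK4 and CDK6, which begin to phosphorylate the retinoblastoma protein. E cyclins and then A cyclins pair with CDK2, which completes that step and drives DNA replication, once E2F transcription factors are released. Renal carcinoma cells that lack VHL, 786-0 among them, are known for high cyclin D1, a target of the hypoxia-inducible factor HIF-2.

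The values are equalised counts: read counts that the authors adjusted to 1 common effective size over all 4 libraries, which are no longer whole numbers. The whole counts behind them could be recovered, and their totals ranged from 13187517 in Control 2 to 31905328 in Control 1, with 17117659 and 14700669 in SLFN5 siRNA 1 and 2. The targeted gene SLFN5 had 420 and 353 equalised counts with control siRNA, against 167 and 118 with its own siRNA. The epithelial and renal markers PAX8, KRT8 and KRT18 were present in all libraries, whereas PTPRC had 1 recovered count over all 4 and CD3E and PECAM1 had 0. The summed markers ran from 3.53 to 8.40 equalised counts for 4 leukocyte genes, from 5.23 to 13.5 for 4 endothelial genes and from 73.9 to 162 for 4 fibroblast genes, with overlapping groups for the last 2 lists and higher controls for the leukocyte list. Of the 6 markers listed for the line, PAX8, PAX2, KRT8, KRT18 and MET did not pass the limma test used below, and the mesenchymal filament gene VIM fell by 0.46 in log2 terms (adjusted p = 0.0140). The part of these marker levels in the results below was not tested. In a bulk sample, fewer cells in a cycle phase and less RNA per cell cannot be told apart.

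Short stretches of promoter are shown for CDK4, CDK6 and CCNA2. CDK4 and CDK6, partners of the same cyclins, went in opposite directions in these data, and whether promoter motifs bear on this was not tested. RefSeq promoters (build GRCh38.p14, 250 bases before to 50 after a transcript start) were found for 6 of the 10 genes, 9 promoters in all, and those of CCND1, CCND2, CCNE2 and CDK2 were not used here. The E-box CACGTG, the core that MYC and related factors bind, was found in the promoter of CDK4 at 3 places, starting 216, 196 and 101 bases before the start, and in 1 of the CDK6 promoters once, starting 31 bases into the transcript. Of all 35116 RefSeq promoters of this length, 7.26% hold it. The cyclic AMP response element TGACGTCA was found in the CCNA2 promoter, 81 bases before the start, and is in 1.85% of promoters. Both motifs read the same on either strand and neither holds the other. Binding at these places was not measured. Of the E2F forms TTTCCCGC, TTTGGCGC, TTTCGCGC and TTTGCCGC, searched on both strands, none was in the 9 promoters, against 3.31% of all promoters, which says only that these letters are not in these windows. The motifs stand in capitals on the minus strand at chr12:57752499-57752528 and chr12:57752394-57752423 for CDK4, chr7:92836526-92836555 for CDK6 and chr4:121823946-121823975 for CCNA2.
CDK4, distal: gtCACGTGtgatagcaacagatCACGTGgc
CDK4, proximal: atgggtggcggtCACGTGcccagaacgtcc
CDK6: cgaggccgcggaCACGTGcggagagccgac
CCNA2: gtcgccttgaaTGACGTCAaggccgcgagc

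Across the family, transcripts of most G1 and S cyclins were lower after SLFN5 siRNA and CDK6 was higher. Of the 10 genes, 9 had at least 10 equalised counts in at least 2 libraries and were tested, and each of them reached that level in every library. Of those 9, 6 fell (CCNA1, CCNE1, CCND1, CCNE2, CCND3 and CDK4), 1 rose (CDK6) and 2 did not pass (CCNA2 and CDK2). The test was limma on log2(value + 1), with Benjamini-Hochberg adjustment over all 15640 genes tested and a threshold of 0.05. In the same fit 29.6% of all tested genes passed, 16.3% lower and 13.3% higher. The median log2 change of the 9 genes was -0.47, beside -0.03 for all tested genes. The calls rest on the variance trend across expression levels: without it, CCNA1 alone passed (adjusted p = 0.0420), CCNE1 was at 0.0516, CCND1 at 0.0647, CDK6 at 0.0828, CCND3 at 0.0918, CCNE2 at 0.0998 and CDK4 at 0.109.

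**Figure D1:**
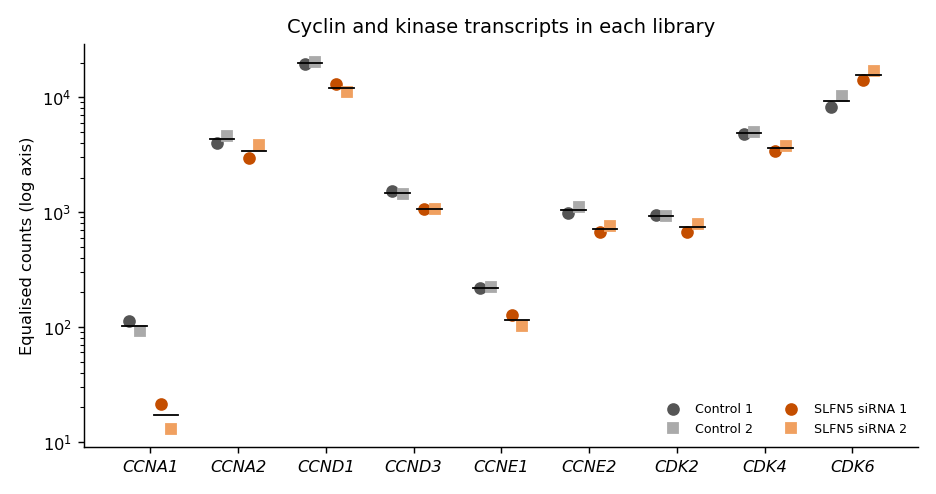
Equalised counts (vertical log axis) of the 9 tested genes in each of the 4 libraries, grey for control siRNA and orange for SLFN5 siRNA, circles for library 1 and squares for library 2 of a group, with a black line at each group mean. The orange points lie below the grey ones for 8 genes and above them for CDK6. CCND2, with 1 recovered count in all, is not drawn.

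The D cyclins were led by CCND1. Cyclin D1 (ENSG00000110092) had 19275 and 20137 equalised counts with control siRNA, against 13013 and 11025 after SLFN5 siRNA. Both control libraries were above both SLFN5 siRNA libraries, and the means were 19706 ± 609 and 12019 ± 1406 (SD, n = 2). CCND1 fell by 0.72 in log2 terms, to 0.608 of the control level (SE 0.12, limma adjusted p = 0.000891). Cyclin D3 (CCND3, ENSG00000112576), the form best known from lymphoid cells, was at 1524 and 1431 in the controls and at 1056 and 1069 after SLFN5 siRNA. The groups were apart again, and the SLFN5 siRNA libraries differed little from each other. CCND3 fell by 0.47 (SE 0.12, adjusted p = 0.0113), a call that was lost without Control 1 (log2 change -0.43, adjusted p = 0.0973).

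Cyclin D2 (CCND2, ENSG00000118971) was at the detection limit in this line. It had 1 recovered count in Control 1 and 0 in the other libraries, so it was not tested. A count of 0 allows up to 3 counts, which is a CPM of 0.227 in Control 2 and CPMs of 0.175 and 0.204 in the SLFN5 siRNA libraries, for counting error only. The D cyclin message of these cells was thus almost all CCND1 with a smaller part of CCND3. Per kilobase of exon, CCND3 was 5.58% to 7.47% of the sum of CCND1 and CCND3 in the 4 libraries. That sum with CCND2 was 4253 and 4416 equalised counts per kilobase in the controls and 2876 and 2467 after SLFN5 siRNA.

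The E cyclins both fell. Cyclin E1 (CCNE1, ENSG00000105173) had 217 and 223 equalised counts in the controls and 127 and 103 after SLFN5 siRNA, from 374, 154, 124 and 88 recovered counts. Its control libraries were close together and well above the others. CCNE1 fell by 0.94 in log2 terms, to 0.520 of the control level (SE 0.22, adjusted p = 0.00676). Cyclin E2 (CCNE2, ENSG00000175305) was the more abundant E cyclin, at 975 and 1099 in the controls and 671 and 763 after SLFN5 siRNA. Its groups did not overlap either. CCNE2 fell by 0.53 (SE 0.14, adjusted p = 0.0126). That call was lost on leaving out Control 2 (log2 change -0.45, adjusted p = 0.125), and likewise on leaving out SLFN5 siRNA 1 (log2 change -0.44, adjusted p = 0.0594). In GENCODE 29, 37.0% of the exonic bases of CCNE2 are also exonic in INTS8 on the opposite strand. The library kit named in the labels does not mark strand, so reads there cannot be assigned. INTS8 was at 1479 and 1714 equalised counts in the controls, and its log2 change of -0.29 did not pass (adjusted p = 0.206). How much of the CCNE2 level comes from this overlap was not tested.

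The A cyclins differed in level and in size of change. Cyclin A1 (CCNA1, ENSG00000133101), which is best known from germ cells and leukaemias, was scarce, at 113 and 92.1 equalised counts in the controls and 21.4 and 13.0 after SLFN5 siRNA. These rest on 193, 63, 21 and 11 recovered counts. The lower control library was still far above the higher SLFN5 siRNA library. CCNA1 fell by 2.54 in log2 terms, to 0.172 of the control level (SE 0.37, adjusted p = 0.000491), and was the 1 gene of the family past a 2-fold change. Cyclin A2 (CCNA2, ENSG00000145386), the A cyclin of dividing somatic cells, was at 4015 and 4586 in the controls and 2958 and 3854 after SLFN5 siRNA. Its groups did not overlap, but SLFN5 siRNA 2 came close to Control 1. The log2 change of CCNA2 was -0.35 (SE 0.14, 95% interval -0.65 to -0.05), which did not pass over all genes (adjusted p = 0.0787). It passed on leaving out Control 1 (adjusted p = 0.0469) or SLFN5 siRNA 2 (adjusted p = 0.0157, log2 change -0.54), and was -0.15 without SLFN5 siRNA 1. A stretch of 9.08% of its exonic bases overlaps EXOSC9 on the opposite strand, which fell by 0.69 (adjusted p = 0.00248).

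**Figure D2:**
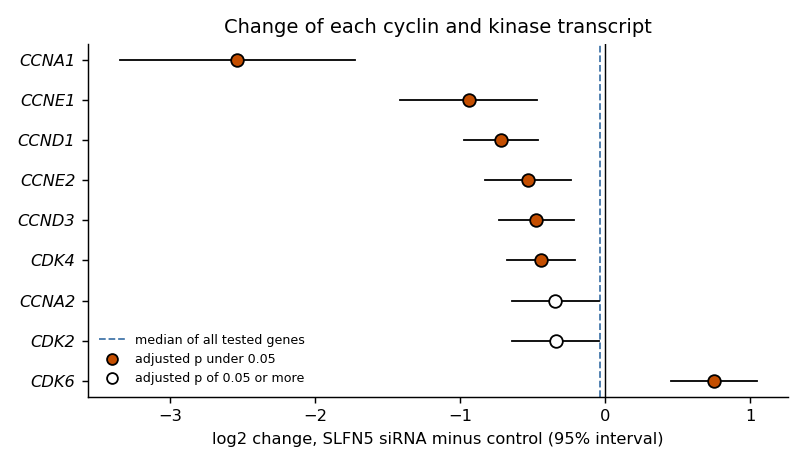
Log2 change of each tested gene (horizontal axis, SLFN5 siRNA minus control) with its 95% interval from limma. Filled points passed an adjusted p of 0.05, open points did not, and the dashed line marks the median of all tested genes. CCNA1 lies farthest to the left at -2.54, CDK6 alone lies to the right at 0.75, and CCNA2 and CDK2 are open.

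The kinases that pair with D cyclins went in opposite directions. CDK6 (ENSG00000105810) was at 8211 and 10203 equalised counts in the controls and at 14012 and 16937 after SLFN5 siRNA. Both SLFN5 siRNA libraries were above both controls, although the libraries within each group also differed from each other. CDK6 rose 1.68-fold, a log2 change of 0.75 (SE 0.13, adjusted p = 0.00166), and passed with each library left out in turn (log2 change from 0.59 to 0.91). CDK4 (ENSG00000135446) was at 4754 and 4957 in the controls and at 3426 and 3730 after SLFN5 siRNA. All control values were above all SLFN5 siRNA values. CDK4 fell by 0.44 (SE 0.11, adjusted p = 0.00968), a call that was lost on leaving out Control 2 (log2 change -0.41, adjusted p = 0.0781). In GENCODE 29, 43.2% of the exonic bases of CDK4 are also exonic in TSPAN31 on the opposite strand. TSPAN31, a membrane protein gene, went from 173 and 171 equalised counts to 346 and 290 (log2 change 0.88, adjusted p = 0.00479), the other direction from CDK4 and at a much lower level.

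CDK2 (ENSG00000123374), the partner of E and A cyclins, was at 941 and 916 equalised counts in the controls and at 677 and 793 after SLFN5 siRNA. Its groups were apart, with SLFN5 siRNA 1 the lowest library. The log2 change was -0.34 (SE 0.14, 95% interval -0.64 to -0.04) and did not pass over all genes (adjusted p = 0.0805). It passed on leaving out SLFN5 siRNA 2 (adjusted p = 0.0458, log2 change -0.46) and was -0.23 without SLFN5 siRNA 1. The antisense gene AC025162.1 overlaps 14.5% of the exonic bases of CDK2 and had 18.9 equalised counts or fewer in every library. In all 9 tested genes the groups did not overlap, 8 with lower and 1 with higher SLFN5 siRNA values. With 2 libraries a group such separation is common: it held for 64.6% of all tested genes, 34.1% lower and 30.5% higher.

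**Figure D3:**
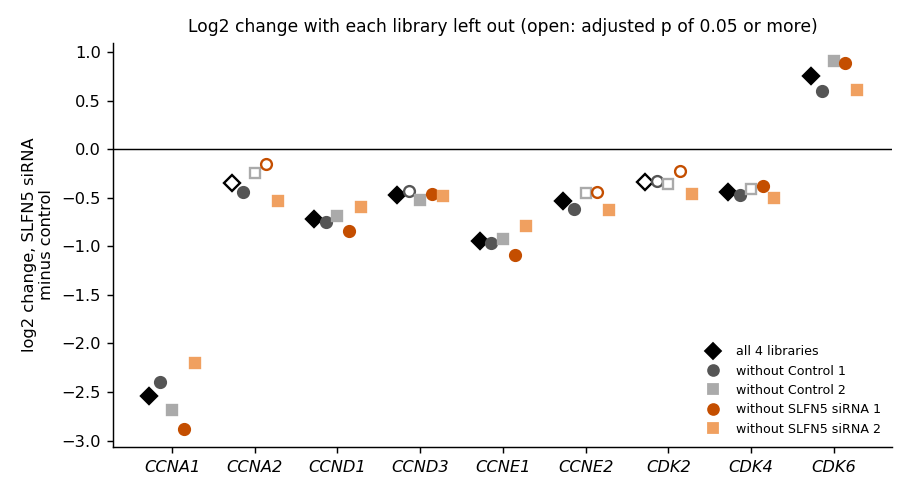
Log2 change (vertical axis, SLFN5 siRNA minus control) of each tested gene with all 4 libraries (black diamond) and with each library left out in turn; open symbols have an adjusted p of 0.05 or more. CCNA1, CCND1, CCNE1 and CDK6 stay filled in every fit, while CCND3, CCNE2 and CDK4 each lose the call in at least 1. No gene changes sign.

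Related transcripts were also compared within each library as ratios of equalised counts. The level of such a ratio depends on the lengths of both genes, whereas its change between groups does not. Both may carry reads from genes that overlap the pair, such as TSPAN31 for CDK4 and INTS8 for CCNE2, which was not tested. The log2 ratio of CDK6 to CDK4 was 0.79 and 1.04 in the controls and 2.03 and 2.18 after SLFN5 siRNA, so the ratio was 2.29 times as high. Per kilobase of exon, CDK6 was 30.9% and 34.7% of the sum of the pair in the controls and 51.4% and 54.0% after SLFN5 siRNA. CDK6 was thus below CDK4 in both controls and slightly above it in both SLFN5 siRNA libraries on this scale, though the levels of the pair overlapped across the latter. The order of the pair rests on the length of all annotated exons joined, 3168 bases for CDK4 and 12260 for CDK6. With the exons of the transcripts in use it could differ, which was not tested. The per-kilobase level of CDK4 also depends on how reads in the exons shared with TSPAN31 were assigned, which was not tested. The sum of the pair per kilobase was 2170 and 2397 in the controls and 2224 and 2559 after SLFN5 siRNA, and the groups overlapped. The log2 ratio of CCNA1 to CCNA2 was -5.15 and -5.64 in the controls and -7.11 and -8.21 after SLFN5 siRNA. The log2 ratio of CCNE1 to CCNE2 was -2.17 and -2.30 against -2.40 and -2.89, a smaller step in which Control 2 was close to SLFN5 siRNA 1. Its group means, -2.23 and -2.65, were nearer to each other than the SLFN5 siRNA libraries were. CCND3 to CCND1 went from -3.66 and -3.82 to -3.62 and -3.37. For each of these 4 ratios the groups were apart and the exact two-sided permutation p was 0.333, the smallest that 2 libraries against 2 allow, so none could pass.

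**Figure D4:**
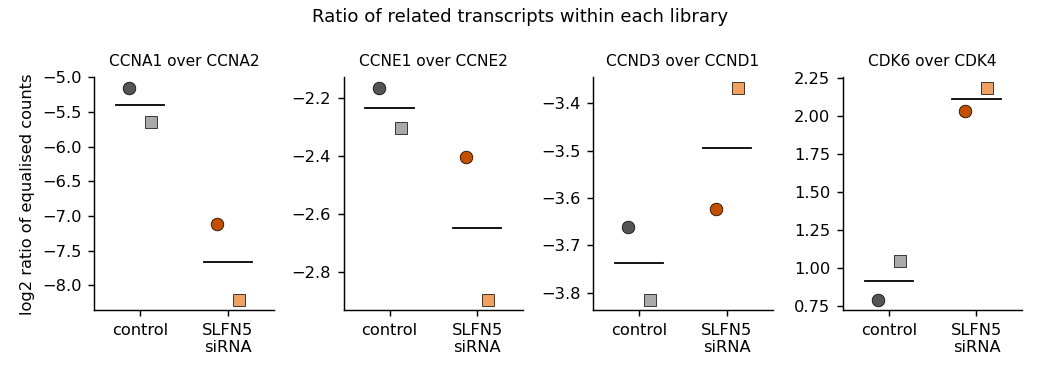
Log2 ratio of equalised counts of 4 pairs of related genes within each library (vertical axis, own scale per panel), with a line at each group mean. CDK6 over CDK4 goes from a mean of 0.91 to 2.11 and CCNA1 over CCNA2 from -5.39 to -7.66; in the CCND3 over CCND1 panel Control 1 and SLFN5 siRNA 1 nearly meet.

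Levels of different genes were compared as equalised counts per kilobase of exon (union of exons in GENCODE 29, whose gene models may differ from the authors'). Close levels may change places with the exons counted, and those of CCNE2 and CDK4 also carry the overlaps with INTS8 and TSPAN31. In the controls CCND1 was the most abundant at 4080 ± 126 (SD, n = 2), followed by CCNA2 at 1537 ± 144, CDK4 at 1533 ± 45.4 and CDK6 at 751 ± 115. CCND3, CDK2 and CCNE2 followed at 255, 239 and 236, then CCNE1 at 86.3, CCNA1 at 42.7 and CCND2 near 0. In this order CCNA2 and CDK4 overlapped, as did CDK2 and CCNE2. CCND3 was above CDK2 in both controls but overlapped CCNE2. After SLFN5 siRNA CCND1 was still first at 2488 ± 291, and CDK6 came next at 1262 ± 169, overlapping CCNA2 at 1217 ± 227, which overlapped CDK4 at 1129 ± 67.9. CDK2 and CCND3 overlapped at 189 and 183, and CCNE2, CCNE1 and CCNA1 followed at 163, 45.0 and 7.18.

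The other genes of the G1/S pathway were taken by role, from 10 lists with 96 genes. Of these, 92 were tested, 23 were lower (25%) and 8 higher (8.70%), beside the 16.3% and 13.3% of all tested genes. The same all-gene shares are the background for the counts of each list below. Of the calls, 9 of the 23 lower and 3 of the 8 higher held in all 4 fits that left out a library. Without the variance trend only 2 lower and 1 higher were called.

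Of the 5 tested CDK inhibitor genes, 3 rose and 0 fell in limma (median log2 change 0.65). None was lower at an unadjusted p under 0.05 or in limma-voom. CDKN1A, which makes p21, an inhibitor of cyclin-CDK2 complexes, went from 4645 and 2860 equalised counts to 7853 and 6639 and rose by a log2 change of 0.99 (SE 0.19, adjusted p = 0.00221). Without Control 2 its log2 change was 0.64. The INK4 proteins bind CDK4 and CDK6 directly. CDKN2C, which makes p18, went from 816 and 793 to 1293 and 1240 (log2 change 0.65, adjusted p = 0.00230). CDKN2D, which makes p19, rose by 0.77 (adjusted p = 0.0168), a call lost without Control 2 (0.131) or SLFN5 siRNA 1 (0.0619). The p27 gene CDKN1B was level at 1319 and 1280 against 1264 and 1339. CDKN2A and CDKN2B, which make the INK4 inhibitors p16 and p15, had 0 recovered counts in every library.

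Genes that activate the kinases were mixed, with 3 of 8 tested lower and 1 higher, beside 16.3% and 13.3% of all tested genes. The CDK-activating kinase consists of CDK7, cyclin H and MNAT1. Its cyclin subunit CCNH fell by 0.75 on the log2 scale, from 689 and 765 to 443 and 421 equalised counts (adjusted p = 0.00254). For CDK7 the log2 change was -0.54 (adjusted p = 0.0361; 0.145 without Control 1, 0.185 without Control 2, 0.101 without SLFN5 siRNA 1 and 0.0611 with TMM scaling). CKS1B, a small subunit that binds CDKs and helps SKP2 recognise p27, fell by 0.52 (adjusted p = 0.00811; 0.0982 without Control 2). The phosphatase gene CDC25B rose by 0.46 (adjusted p = 0.0248; 0.249 without Control 2 and 0.119 without SLFN5 siRNA 1). Of the inhibitory kinases, PKMYT1 had a log2 change of -0.37 (adjusted p = 0.0376; 0.181 without Control 1, 0.157 without Control 2, 0.135 without SLFN5 siRNA 2 and 0.0692 with TMM scaling), and WEE1 one of -0.06 that did not pass (adjusted p = 0.770).

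Among retinoblastoma family and E2F genes, 3 of 13 were lower and 1 higher, beside 16.3% and 13.3% of all tested genes. E2F5, one of the repressor E2Fs, fell by 1.00 on the log2 scale, from 565 and 595 equalised counts to 268 and 315 (adjusted p = 0.000871). E2F2, an activator, had a log2 change of -0.67 (adjusted p = 0.0250; 0.0920 without Control 1, and -0.38 with 0.148 without SLFN5 siRNA 2). E2F4, a repressor, had one of -0.47 (adjusted p = 0.0112; 0.0750 without Control 2 and 0.0560 without SLFN5 siRNA 1). The pocket protein gene RBL2, which makes p130, rose by 0.53 (adjusted p = 0.00645; 0.0662 without Control 2). RB1 was at 1443 and 1592 against 1306 and 1614, with overlapping groups, and E2F1 did not pass (log2 change 0.25, adjusted p = 0.235). Of the 6 tested MuvB, B-MYB and FOXM1 genes, 0 passed in either direction in limma or limma-voom. Only LIN9 had an unadjusted p under 0.05 in limma (log2 change -0.56, adjusted p = 0.0940).

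Of the 10 tested genes of cyclin and inhibitor degradation, 4 fell and 0 rose in limma, and 0 higher at an unadjusted p under 0.05 or in limma-voom. SKP2, the ubiquitin ligase subunit that marks p27 for destruction, fell by 1.29 in log2 terms (SE 0.14, adjusted p = 7.87e-05). It had 2858 and 3192 equalised counts with control siRNA, against 1091 and 1405 after SLFN5 siRNA, with the groups far apart. The ligase RING subunit RBX1 fell by 1.06 (adjusted p = 0.0103; 0.146 without Control 2). FBXO31, a ligase subunit for cyclin D1, had a log2 change of -0.47 (adjusted p = 0.0453; 0.208 without Control 1, 0.0943 without Control 2, 0.204 without SLFN5 siRNA 2 and 0.0672 with TMM scaling). FBXO5, an inhibitor of the anaphase-promoting complex, had one of -0.44 (adjusted p = 0.0419; 0.362 without Control 2, 0.169 without SLFN5 siRNA 1 and 0.103 with TMM scaling). FBXW7, which targets cyclin E, did not pass (log2 change -0.11, adjusted p = 0.673).

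Of the 17 tested genes that E2F factors switch on at the G1/S boundary, 6 fell and 0 rose in limma (median log2 change -0.25), and 0 higher at an unadjusted p under 0.05 or in limma-voom. POLA1, the catalytic subunit of DNA polymerase alpha, CDC6, which loads the replicative helicase, and MCM6, a helicase subunit, fell by 0.73, 0.64 and 0.58 on the log2 scale, and each held with every library left out. The other 3 calls were lost without Control 2. MCM4, another helicase subunit, had a log2 change of -0.41 (adjusted p = 0.0119; 0.0572 without Control 1, 0.0734 without Control 2 and 0.0625 without SLFN5 siRNA 1). Its partner MCM7 had one of -0.40 (adjusted p = 0.0151; 0.0746 without Control 1, 0.0714 without Control 2 and 0.0865 without SLFN5 siRNA 2). RRM2, a ribonucleotide reductase subunit, had a log2 change of -0.44 (adjusted p = 0.0238; 0.210 without Control 2, 0.145 without SLFN5 siRNA 1 and 0.0823 with TMM scaling). Proliferation markers did not move together. Of 8, 1 was lower and 0 higher in limma and in limma-voom, beside 16.3% and 13.3% of all tested genes in limma. At an unadjusted p under 0.05 in limma, 1 was higher. Their summed level was 29243 and 30368 equalised counts in the controls and 29135 and 30976 after SLFN5 siRNA, with overlapping groups. The lower gene, the mitotic kinase PLK1, had a log2 change of -0.37 (adjusted p = 0.0388; 0.141 without Control 1, 0.145 without Control 2, 0.192 without SLFN5 siRNA 2 and 0.0735 with TMM scaling). MKI67 and TOP2A had log2 changes of 0.19 and 0.03 that did not pass (adjusted p = 0.275 and 0.870).

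Other cyclins went both ways, with 3 of 16 lower and 2 higher in a list that also holds CDK1. These counts are close to the 16.3% lower and 13.3% higher of all tested genes. Cyclin G2 (CCNG2), a cyclin linked to cell cycle arrest, rose by 1.67 on the log2 scale, from 53.8 and 48.2 equalised counts to 193 and 140 (SE 0.27, adjusted p = 0.000904). CCNJ fell by 1.00, from 453 and 585 to 241 and 272 (adjusted p = 0.00159). CCNC, the cyclin of the Mediator kinase, had a log2 change of -0.48 (adjusted p = 0.0112; 0.103 without Control 2 and 0.0577 without SLFN5 siRNA 1). The mitotic cyclin CCNB1 had a log2 change of -0.38 (adjusted p = 0.0315), a call lost without Control 2, without SLFN5 siRNA 1 and with TMM scaling (adjusted p = 0.0980). Its kinase CDK1 did not pass (-0.39, adjusted p = 0.0685). The B cyclin CCNB2 went the other way, from 1122 and 1202 equalised counts to 1375 and 1555. It did not pass either (log2 change 0.33, adjusted p = 0.0653). CCNF had one of 0.34 (adjusted p = 0.0362), a call lost with any library left out (adjusted p from 0.0604 to 0.230) with library medians set equal (0.0660) and with the filter at a value above 1 in at least 1 library (0.0523).

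Among known inducers of D cyclins, 2 of 7 were lower and 1 higher, beside 16.3% and 13.3% of all tested genes. EGFR, the epidermal growth factor receptor, fell by 0.91 on the log2 scale, from 6186 and 5899 equalised counts to 3600 and 2857 (SE 0.13, adjusted p = 0.000337). MYC, whose product can bind the E-box motif, fell by 0.64, from 2404 and 3025 to 1840 and 1622 (SE 0.13, adjusted p = 0.00425). EPAS1, which makes HIF-2 alpha, had a log2 change of 0.55 (adjusted p = 0.0358; 0.31 with 0.287 without Control 2, 0.217 without SLFN5 siRNA 1, and 0.05002 with library medians set equal). CTNNB1, ARNT, JUN and FOS did not pass. Whether any of these changes bears on the cyclin transcripts was not tested.

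**Figure D5:**
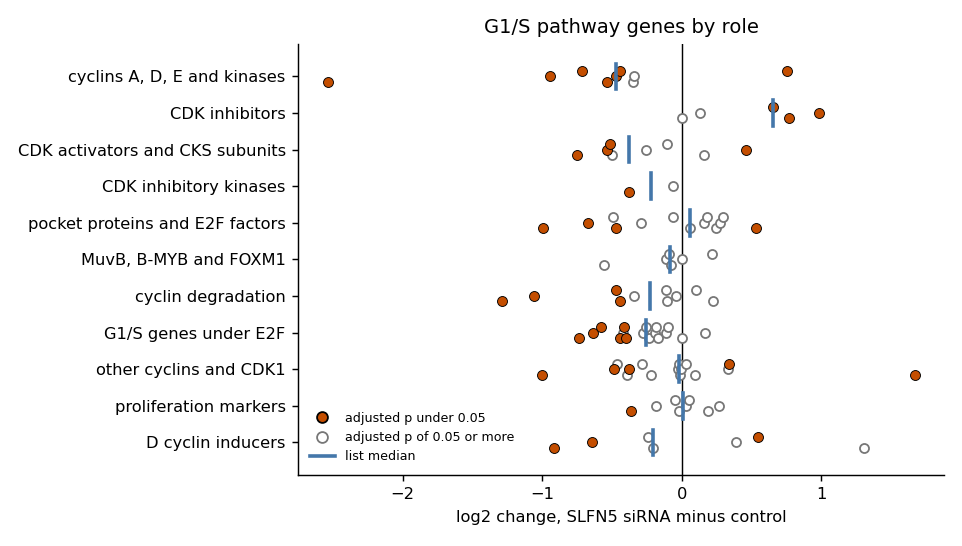
Log2 change (horizontal axis, SLFN5 siRNA minus control) of each tested gene in the cyclin and kinase family and in the 10 pathway lists, filled where the adjusted p was under 0.05, with a blue line at each list median. The filled points of the CDK inhibitors lie to the right of 0 and those of the degradation and G1/S lists to the left.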

How the data were processed

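Per the labels' protocols, poly(A) libraries were made with an Illumina TruSeq kit and read as single ends. The submitters' processing notes name hg19 and edgeR, with aligner, counter and annotation not given in the sources used here. Each deposited value is a per-gene signal, counts that the authors adjusted to 1 common effective size over all libraries, as judged from the values: each library's sum times its TMM factor lay between 18038543 and 18039787. Inverting that adjustment (dispersion 0.0162) gave whole counts for all 230636 values (relative tolerance 1e-05), used for depth and for limma-voom.

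Genes reaching a value of 10 in 2 or more libraries entered limma 3.58.1 (R 4.3.3) on log2(value + 1), group alone, intensity trend, Benjamini-Hochberg adjustment over 15640 genes. Fold changes are on that scale and understate changes of low genes. On simulated data with 15585 genes tested, 86.0% of genes set to 2-fold and 78.0% of those set to 0.5-fold were called. The shares were 16.0% at 1.5-fold and 8.00% at 0.67-fold, so small changes can be missed. Far fewer genes were changed there than the 29.6% called here, which makes the adjusted threshold stricter. These shares therefore do not give the power of the fit reported here. The 10 genes and the lists were chosen with earlier results of these data known. All 10 were named; from each list, called genes by size, up to 4 per direction, and all of the list of 2 genes. Others were added after their values were seen. A leukocyte marker of the fixed list is not reported here. Exon lengths and overlaps come from GENCODE 29 on GRCh38, promoters from RefSeq, and no coordinates were converted. Alternatives comprised pseudocount, filters, trend, TMM or median scaling, replicate block, each library left out, and limma-voom.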

Additional observations from a re-analysis of the deposited data

How the results depend on the processing

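No gene of the family changed sign in any of the 12 alternatives. Without the variance trend, log2 changes were as before but adjusted p rose past the threshold for CCND1 (-0.72), CCND3 (-0.47), CCNE1 (-0.94), CCNE2 (-0.53), CDK4 (-0.44) and CDK6 (0.75), leaving 1 lower and 0 higher in the family, 2 and 1 in the pathway lists, and 510 and 672 of all genes. Leaving out 1 library gave log2 changes of -0.54 to -0.15 for CCNA2, -0.52 to -0.43 for CCND3, -0.63 to -0.44 for CCNE2, -0.46 to -0.23 for CDK2 and -0.50 to -0.38 for CDK4. It gave 4 to 8 lower and 1 higher in the family, 10 to 22 lower and 3 to 7 higher in the lists, and 1588 to 2341 lower and 1346 to 1767 higher of all genes; the lowest counts for the lists and for all genes came without Control 2, and the lone library of a group is then assumed to vary like the other group. With the replicate block, CCNA2 (-0.35, limma adjusted p = 0.00137) and CDK2 (-0.34, adjusted p = 0.0138) also passed, giving 8 lower and 1 higher in the family, 34 and 13 in the lists, and 3695 and 3008 of all genes (2544 and 2086 without the block). Deviations of same-numbered libraries correlated at 0.19 over genes, and the titles of same-numbered libraries share a tag whose meaning is not given, so a shared batch is possible; with 2 pairs the numbers were not taken to pair libraries. Other scalings moved the median of all genes by at most 0.04 on the log2 scale, but TMM scaling of the deposited values left 6 lower and 1 higher in the family, 16 and 8 in the lists (2 lower in degradation, in place of 4), and 2000 and 2068 of all genes, so that 50.8% of calls were higher, against 45.1%. CCNA1 after SLFN5 siRNA rests on 21 and 11 counts, and at the depth of 13187517 counts in Control 2 CCND2 was not detectable.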

Other observations

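For each cyclin or kinase that passed, the genes whose pattern over the 4 libraries lay nearest were listed, as the Euclidean distance between centred log2(value + 1) profiles among 10541 genes with a mean of at least 100. These are descriptions over 4 libraries, where many genes lie close. The nearest to CCND1 were EIF1AD and HOXA3 (distances 0.033 and 0.047), with EIF1AD at 995 and 1017 equalised counts in the controls and 662 and 551 after SLFN5 siRNA. The nearest to CDK4 were ATP2C1, a Golgi calcium pump gene, and RAB23 (0.012 and 0.018). CDK6 was matched less closely, by SLC24A1 and CCDC142 (0.048 and 0.073). For CCNE1 they were ST6GALNAC4 and KIF7 (0.046 and 0.054), for CCNE2 WDR74 and LYPLA1 (0.028 for each), and for CCND3 ZFY and NDUFS1 (0.024 and 0.025). CCNA1 stood farthest from any other gene of these 7, with the matrix protein gene THBS1 and SGCE at 0.40 and 0.41. The mean of CCNA1 itself is below 100, so genes at its own level were not compared. Its distances also carry the counting error of 21 and 11 recovered counts after SLFN5 siRNA. THBS1 went from 14675 and 15289 equalised counts to 2861 and 2438, at a level far above that of CCNA1.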
